A study of Saccharomyces cerevisiae with 268 samples.

Results

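The genes described here make amino acids in budding yeast, Saccharomyces cerevisiae. They are the synthesis genes for histidine, the branched-chain amino acids leucine, isoleucine and valine, lysine, the aromatic amino acids, threonine and asparagine. They were chosen by name from these pathways and not by any measured value, though with earlier results of these data known. Of the 38 genes named, 37 had a row in the deposited table and were analysed, out of 5615 genes tested, and the other is not analysed here. The 37 comprise 6 histidine, 10 branched-chain, 6 lysine, 7 aromatic, 5 threonine and 2 asparagine genes, and 1 gene that enters only the counts and medians over all 37.

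Yeast can build every amino acid itself. When amino acids run short, the kinase Gcn2 slows general translation while allowing more of the activator Gcn4 to be made, and Gcn4 then raises transcription of genes in many synthesis pathways at once. This general control is layered over pathway-specific regulators: Leu3 for the branched-chain pathway, Lys14 for lysine, Bas1 with Pho2 for histidine and purines, and the Rtg proteins for the mitochondrial steps that feed lysine and glutamate synthesis.

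The study compared RNA of strains that each lacked 1 regulator gene with wild type RNA, both from mid-log cultures, on arrays with 2 channels, to learn which regulator acts on which gene. There were 268 deletions with 1 column of values each, so no deletion had a replicate. Per the labels the deletion strain was labelled with Cy5 and wild type with Cy3, and strain background and medium are not stated in the labels. For tests over several strains, 5 strains lacking a subunit of the chromatin remodeller SWI/SNF (SWI3, SNF5, SNF2, SNF6 and SNF11), 5 lacking a subunit of the coactivator SAGA (ADA2, NGG1, SPT3, SPT20 and HFI1), 3 lacking a subunit of the Mediator tail (SIN4, GAL11 and PGD1) and 3 lacking a subunit of the Mediator CDK module (SSN3, SRB8 and SSN2) were each set against the strains outside these 4 sets, which are the 268 less the 16 in the sets. The outside strains still hold NUT1, CSE2, SRB2, SRB5 and TAF14, which lack other subunits of Mediator or SWI/SNF.

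Each value is a score of the deletion strain over wild type, and the sources used here give neither its unit or log base nor how it was normalized. On its face a negative score is less RNA of that gene in the deletion strain than in wild type. Because normalization and centring are not stated, a score below 0 alone does not establish this. A score can be read neither as a fold change nor as a level of RNA. In RNA from a whole culture, fewer cells expressing a gene and less RNA per cell cannot be told apart. The deleted gene itself lay above its median of the other columns in 43 of the 263 columns with a value for it, among them NGG1, SPT3, SPT20, SSN3, EDS1, PHO2, ABF1 and MCM1, so these names stand for the label of the column. In the columns ABF1, GCR1, HSF1, MCM1, RAP1 and REB1 (6 in all) values were written with fewer digits than in the others. RAP1, REB1, HSF1, ABF1 and MCM1 are essential genes, and the sources used here do not say how cells lacking them were grown. In 19 columns at least 2 of 4 mating type or strain markers scored below -3, and in 8 columns the genes of 1 chromosome were shifted together by 0.75 or more.

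The amino acid synthesis genes scored low in most deletion strains. The median score of a gene over all columns was below 0 for 33 of the 37 (89.2%), against 66.9% of all genes tested. It was below -0.5 for 24 of the 37 (64.9%), against 22.8% of all genes. The middle gene stood at -0.65 among the synthesis genes and at -0.17 among all genes. The lowest were BAT2 (YJR148W), the cytosolic branched-chain aminotransferase, at -1.90, ILV5 (YLR355C), the reductoisomerase of valine and isoleucine synthesis, at -1.43, and ILV3 (YJR016C), the dihydroxyacid dehydratase that follows it, at -1.31. Among the 4 exceptions above 0 were ASN1 (YPR145W), an asparagine synthetase, at 0.41, LEU9 (YOR108W), an isopropylmalate synthase, at 0.33, and LYS20 (YDL182W), a homocitrate synthase, at 0.09. Every column shares the label of its wild type channel, so this common offset describes the table and cannot be assigned to the deletions.

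**Figure D1:**
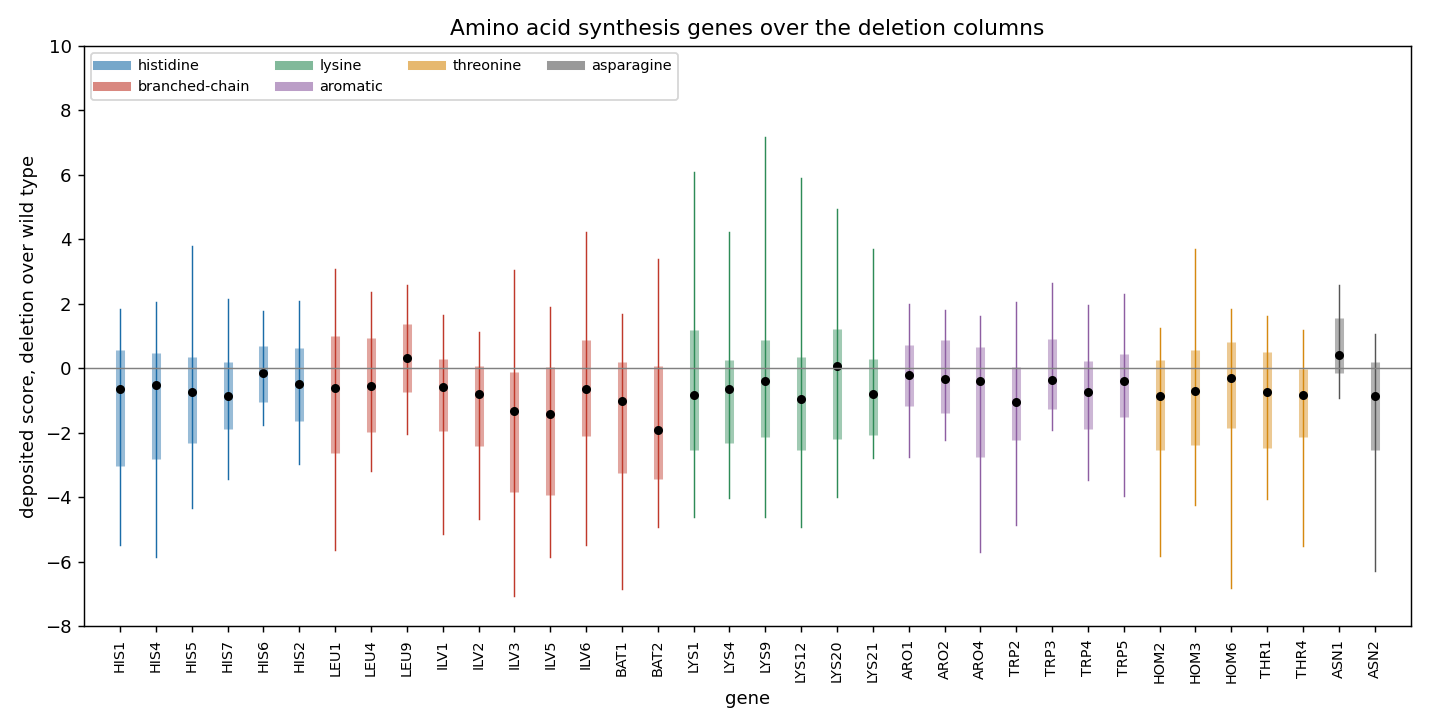
Scores of 36 amino acid synthesis genes over the deletion columns, coloured by pathway. The vertical axis is the deposited score of deletion over wild type, a black dot is the median over columns, a thick bar runs from the 5th to the 95th percentile of columns, and a thin line from the lowest to the highest column. Most medians lie below 0, with BAT2 lowest at -1.90 and ASN1 highest at 0.41, and the thin lines of the lysine genes reach up to the EDS1 column.

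Because each gene has its own offset, a gene is called displaced in a column when its score lies 1 or more from its own median over columns. The spread over columns differed among the genes: the SD ran from 0.53 for ASN1 to 1.28 for LYS1 (YIR034C), the last enzyme of lysine synthesis, with a median of 0.88 against 0.72 for all genes. LYS20 was 1 or more below its own median in 53 columns and ILV3 in 49, while ASN1 was so in 2, against a median of 15 columns and a 95th percentile of 49 over all genes tested. Upwards, LEU1 (YGL009C), the isopropylmalate isomerase, was displaced in 55 columns, and ILV2 (YMR108W), the catalytic subunit of acetolactate synthase, in 8, against a median of 20 and a 95th percentile of 60 over all genes, so the count for LEU1 lay within the range common to most genes.

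The median over all 37 genes ran from -3.15 in the column labelled CST6 to 0.25 in that labelled EDS1. It lay below the median of all genes in 93.7% of the 268 columns. The 5 lowest columns were CST6 at -3.15, SNF6 at -3.01, GCR1 at -2.88, REB1 at -2.68 and SIN4 at -2.53. In CST6, 23 of the 37 genes were 1 or more below their own median, against 24% of all genes tested. In SNF6 it was 25 of 37, against 26.9% of all genes, and in SIN4 25 of 37, against 20.5%. In GCR1 it was 26 of the 35 with a value, against 27.4%, and in REB1 26 of 34, against 20.5%. CST6 is a leucine zipper regulator of growth on non-optimal carbon sources, GCR1 activates glycolytic genes and SIN4 is a Mediator subunit. In CST6 the a-cell genes STE2, BAR1, MFA1 and AGA2 scored -6.10, -6.07, -4.49 and -3.36, while STE6 and MFA2 scored -0.78 and 0.39. The part of these genes in the result was not tested. In the CST6 column its own gene scored -0.44 against a median of -0.17 elsewhere, whereas TUP1, the corepressor, scored -4.16, the 4th lowest of its values, and the TUP1 column itself had a median over the 37 genes of -2.48.

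The 5 highest medians were all close to 0: EDS1 at 0.25, UME6 at 0.18, SIR3 at 0.15, and NDT80 and DAL82 at 0.13 each. In UME6 the genes of chromosome IX, which holds LYS1, LYS12, HIS5 and HIS6, stood 2.34 higher together. The part of that shift in the median was not tested. DAL82, a regulator of allantoin use, had 19 of 37 genes displaced upwards, against 23.5% of all genes. NDT80, a meiotic activator, had 15 of 37, against 21%. In SIR3 the a-cell genes STE2, BAR1, MFA1 and AGA2 scored -6.07, -6.19, -5.57 and -4.75, while STE6 and MFA2 scored -0.97 and 1.48. The part of these genes in the result was not tested.

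Taking the median distance from the genes' own medians per pathway, at least 1 of the 5 larger pathways was lower by 1 or more in 35 columns. In 13 of these a single pathway was, in 15 at least 3 were, and in GCR1, RAP1 and REB1 all 5 were. The median score of all genes tested ran from -0.43 to 0.17 over the columns. The lysine and threonine pathways were lower in 22 columns each, the branched-chain pathway in 20, histidine in 14 and the aromatic pathway in 7. Upward movement was rarer, with 16 columns for any pathway and 7 each for lysine and threonine.

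**Figure D2:**
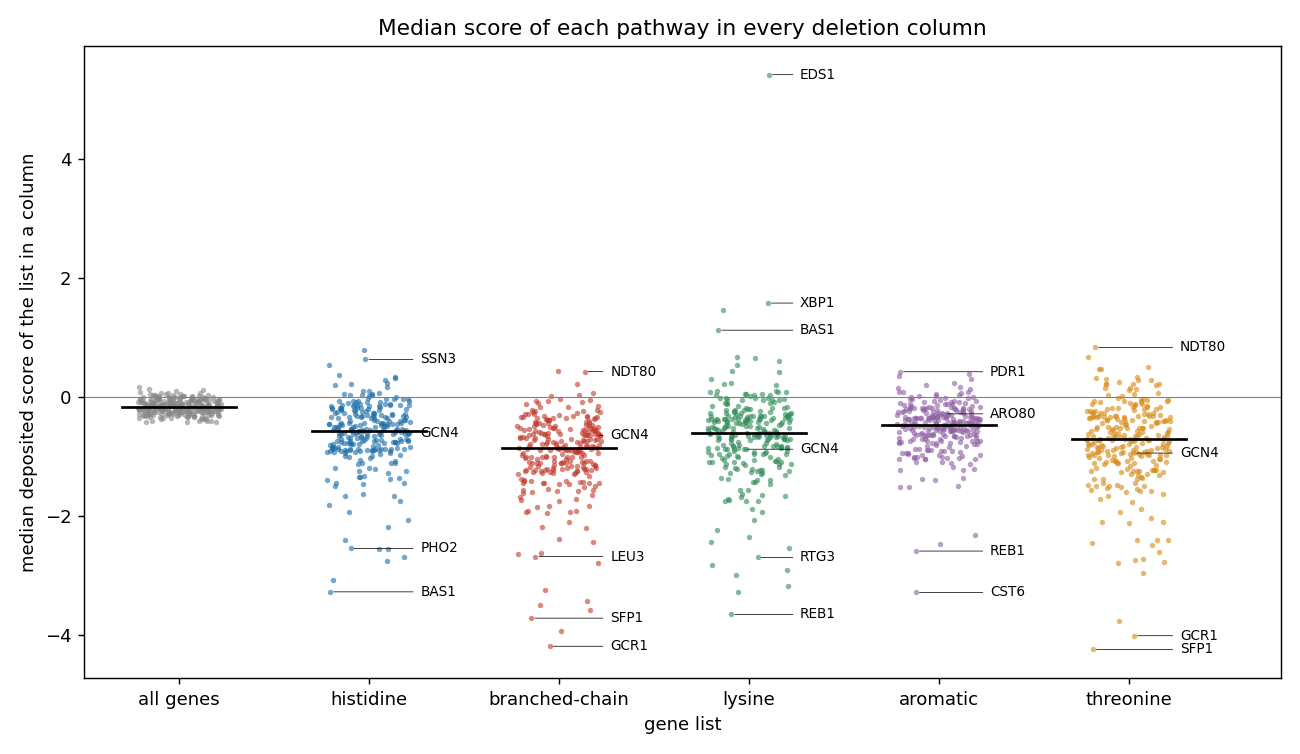
Median score of all tested genes and of the 5 larger pathways in each of the 268 deletion columns, 1 point per column, with the horizontal position spread at random within a list and the black bar at the median over columns. The vertical axis is in score units, and a few columns are named by the deleted gene. All-gene medians stay between -0.43 and 0.17, while BAS1 is lowest for histidine at -3.28, GCR1 for branched-chain genes at -4.20, SFP1 for threonine at -4.25, and EDS1 stands alone for lysine at 5.42.

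GCN4 encodes the activator of general amino acid control, and its own score in its deletion column was -2.15 against a median of 0.06 elsewhere. The synthesis genes did not stand out in that column: their median was -0.56, 120th from the highest of 268, and the median distance from their own medians was -0.011. Of the 37, 4 were 1 or more below their own median, against 6.90% of all genes. These were LYS21, the other homocitrate synthase, at -2.50, HOM3 (YER052C), the aspartokinase that opens threonine synthesis, at -1.73, LEU1 at -1.60, and ARO1, the multifunctional enzyme of the shikimate pathway, at -1.20. LYS21 was lower in only 3 other columns. Another 3 genes were 1 or more above, against 12.4% of all genes: LEU9 at 2.20, the homoserine dehydrogenase gene HOM6 at 1.31 and the saccharopine dehydrogenase gene LYS9 at 0.66. Outside the 37, ARG1, ARG4 and ARG7 of arginine synthesis scored -2.99, -2.75 and -2.35. The rest of the 8 listed arginine genes scored between -0.93 and 0.22. LEU2 scored -3.17, while the rest of the 9 listed further genes of the same pathways scored between -0.55 and 1.18. STE3 and MF(ALPHA)1, both specific to alpha cells, scored -4.72 and -2.54 in the same column. MF(ALPHA)2 and SAG1, also specific to alpha cells, scored -1.21 and 0.59. The strain markers MET17 and URA3 scored -2.24 and -1.63 there. The part of these markers in the result was not tested.

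Histidine synthesis had its lowest median of all columns in the BAS1 strain. Bas1 is a Myb-type activator that works with the homeodomain protein Pho2 on purine and histidine genes. HIS1 (YER055C), the enzyme of the first committed step, scored -5.48 in the BAS1 column, HIS4 (YCL030C), a multifunctional enzyme of early and late steps, scored -4.97, and HIS5 (YIL116W), the histidinol-phosphate aminotransferase, scored -4.33. HIS1 and HIS5 had no lower score in any other column. HIS7, the imidazole glycerol phosphate synthase, scored -2.23, while HIS6 at -0.92 and HIS2, the histidinol phosphatase, at -0.83 stayed within 1 of their own medians. So 4 of 6 histidine genes were displaced downwards, against 13.9% of all genes in that column.

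The PHO2 column held the same order of HIS1, HIS4 and HIS5. HIS1 scored -5.46 there, HIS4 -4.54 and HIS5 -3.66, with 3 of 6 displaced downwards against 9% of all genes. HIS7, HIS6 and HIS2 scored -1.44, -0.45 and -0.79, all within 1 of their own medians. PHO2's own gene scored 0.10 against a median of -0.16, so that column did not show a lower score of its own gene.

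The RAP1 column was lowest of all for HIS4, at -5.84, and for HIS2, at -2.96, and had 5 of 6 displaced downwards against 22.1% of all genes. Rap1 binds many promoters, among them those of ribosomal protein genes. In the ABF1 column 2 of 6 were displaced downwards, against 19.4% of all genes. HIS7 was at its highest there, at 2.16, and it lies on chromosome II, whose genes stood 1.21 higher together in that column. The highest histidine medians were in MCM1 at 0.79, SSN3 at 0.63 and STP1 at 0.53.

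In the branched-chain pathway the clearest column of a pathway regulator was LEU3, named for the zinc cluster activator of leucine, isoleucine and valine synthesis. BAT1 (YHR208W), the mitochondrial branched-chain aminotransferase, scored -6.85, its lowest score of all columns. LEU1 scored -5.51, ILV3 -3.84, ILV2 -3.34, LEU4, an isopropylmalate synthase, -2.80 and ILV5 -2.58. These 6 of 10 genes were 1 or more below their own medians, in a column where 3.06% of all genes were, and BAT1 and LEU1 were the 2nd and the 4th lowest of all genes by distance from their own median. The other 4 did not follow: ILV6, the regulatory subunit of acetolactate synthase, scored -1.37, ILV1, the threonine deaminase, -0.68, LEU9 0.48 and BAT2 -0.78. BAT2 was 1 or more above its own median, as were 2.54% of all genes. The pathway median was -2.69, rank 9 from the lowest, and LEU3's own gene was at its lowest, -2.86. Outside the pathway LYS1 was 1.92 above its own median, the 5th highest of all genes in that column.

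LEU1 and BAT1 were low together in further columns. In STP1, which lacks an activator of amino acid permease genes, LEU1 scored -4.32 and BAT1 -3.54, and 3 of the 9 pathway genes with a value were displaced downwards, against 12.3% of all genes. In RTG3, LEU1 scored -4.65 and BAT1 -3.87. BAT2, by contrast, scored 3.39 in RTG3, its highest of all columns, and 0.72 in STP1. In the RTG1 column, which lacks the partner of Rtg3, LEU1 scored -0.57, BAT1 -0.91 and BAT2 -0.15.

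The columns with the lowest branched-chain medians were broad. In GCR1 the median was -4.20 and 9 of 10 genes were displaced downwards, against 27.4% of all genes, with ILV6 at -5.47. In CST6 it was -3.93, with ILV3 at -6.55. ILV3 had its lowest score in SIN4, at -7.05, where the pathway median was -3.59. LEU9 was not low in any of these, at -0.12, -0.05 and 1.13. The highest medians were 0.43 in EDS1 and 0.42 in NDT80.

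The lysine genes gave the largest pathway value in the table, in the column labelled EDS1. EDS1 encodes a zinc cluster protein. LYS9 scored 7.19 there, LYS1 6.11, LYS12, the homoisocitrate dehydrogenase gene, 5.89, LYS20 4.94, LYS4, the homoaconitase gene, 4.24 and LYS21 3.71. All 6 had their highest score of all columns there, and all 6 were displaced upwards, against 2.71% of all genes. By distance from their own median they ranked 1, 2, 3, 7, 8 and 9 from the highest among the 5606 genes with a value. LYS2 and LYS5, which form the aminoadipate reductase and its activating enzyme and so complete the pathway, scored 0.27 and -0.62, near their own medians of 0.25 and -0.35. The lysine activator gene LYS14 scored -0.24 and GCN4 0.14. EDS1's own gene scored 0.32 against a median of 0.18, so that column did not show a lower score of its own gene either.

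Of the branched-chain genes, ILV5 at 1.90 and BAT2 at 1.76 were the farthest above their own medians in EDS1, and 6 of 10 were displaced upwards. No histidine, aromatic or threonine gene reached a score of 2 there, and HIS5 at 1.14 was the highest of those.

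A smaller upward displacement of the same pathway was seen in the column labelled XBP1, where LYS1 scored 2.83, LYS9 2.56, LYS12 1.71 and LYS20 1.44. The lysine median was 1.57, and 5 of 6 genes were displaced upwards, against 1.55% of all genes in that column. LYS1, LYS9 and LYS12 were the 2nd, the 3rd and the 4th highest of all genes by distance, and LYS4 at -0.27 was the gene within 1 of its own median. XBP1's own gene scored 0.21, equal to its median elsewhere.

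In BAS1, where histidine genes were lowest, the lysine median was 1.12, the 4th highest of all columns. All 6 lysine genes were displaced upwards there, against 9.74% of all genes, led by LYS12 at 1.93 and LYS9 at 1.37. In the PHO2 column the lysine median was -0.96 and no lysine gene was displaced upwards, against 8.98% of all genes.

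In RTG3 the lysine genes were low, with LYS12 at -3.69, LYS20 at -2.94, LYS9 at -2.76, LYS1 at -2.65, LYS21 at -2.59 and LYS4 at -2.21. All 6 were 1 or more below their own medians, against 11.6% of all genes, and RTG3's own gene was at its lowest, -3.77. In RTG1 the 6 genes lay between -1.57 and -0.58, all below their own medians but none by 1 or more, where 5.71% of all genes were. The lowest lysine medians were -3.66 in REB1 and -3.29 in RAP1.

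The aromatic genes were displaced as a group in the fewest columns of the 5 larger pathways. Their median left the range of 1 around the genes' own medians downwards in 7 columns and upwards in PDR1 alone, where it was 0.42 with ARO1 at 2.01 and 4 of 7 genes displaced upwards, against 14.2% of all genes. The lowest medians were -3.29 in CST6 and -2.60 in REB1. Within them ARO4 (YBR249C), the enzyme that opens the shikimate pathway, was far lower than ARO1 and ARO2, the chorismate synthase gene: in CST6 they scored -5.70, -0.87 and -0.24. In SFP1, an activator of ribosome synthesis genes, they scored -5.43, -1.01 and -1.06. The tryptophan genes in CST6 split as well, with TRP2 at -4.23, TRP4 at -3.41 and TRP5, the tryptophan synthase, at -3.29, while TRP3 was at -0.79. In the ARO80 column, which lacks the activator of aromatic amino acid breakdown, no aromatic synthesis gene was 1 or more below its own median, where 6.44% of all genes were, and the 7 scores ran from -0.67 to 0.46. ARO80 is among the 19 columns with low markers, with STE3 at -6.90 and MET17 at -6.05.

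For threonine the lowest median was -4.25 in SFP1. There HOM2 (YDR158W), the aspartate semialdehyde dehydrogenase gene, scored -5.81, THR4, the threonine synthase gene, -5.06, HOM3 -4.25, THR1, the homoserine kinase gene, -3.62 and HOM6 -0.86. So 4 of 5 genes were displaced downwards, against 18.4% of all genes, and HOM6 was not. In RAP1 HOM6 was the lowest of the pathway instead, at -6.81, its lowest of all columns, with THR4 at -1.65. All 5 threonine genes were displaced downwards in GCR1, CST6 and REB1, against 27.4%, 24% and 20.5% of all genes. In CHA4, which lacks the activator of threonine and serine breakdown, none was displaced downwards, against 6.40% of all genes, and in CBF1, which lacks a regulator of methionine synthesis, 1 of 5 was, against 12.5%. The highest medians were 0.83 in NDT80 and 0.67 in DAL82.

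The asparagine synthetase genes behaved apart. ASN2 scored -6.29 in GCR1, -5.61 in CST6, -5.24 in SIN4 and -5.25 in SNF6, where ASN1 had no value in GCR1 and scored 1.05, 0.46 and 0.91 in the others. In GLN3, which lacks an activator of nitrogen catabolic genes, ASN2 scored -2.31 and ASN1 0.64, and 1 of 2 was displaced downwards, against 9.57% of all genes. GLN3 is another of the columns with low markers, with STE3 at -4.12 and MF(ALPHA)2 at -3.96, and their part in the result was not tested. ASN1 reached its highest score, 2.58, in SAS5. In ARG80, ARG81 and ARG82, which lack regulators of arginine genes, the medians over the 37 genes were -0.50, -0.61 and -0.53, close to the middle of all columns.

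**Figure D3:**
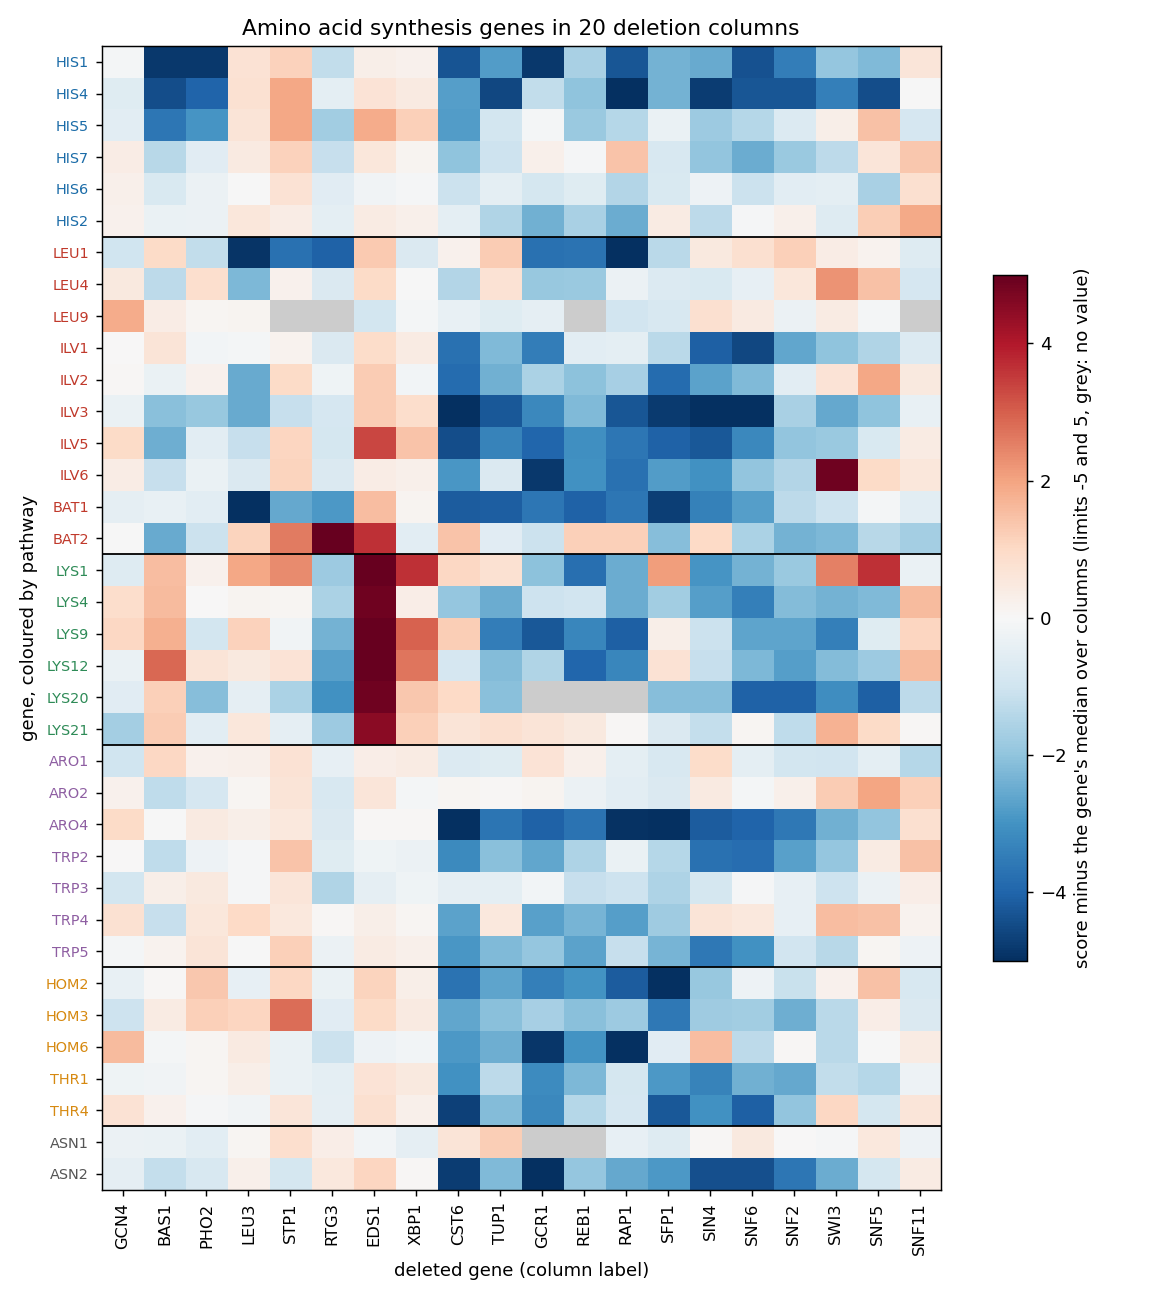
Score minus the gene's own median over columns for 36 genes (rows, ordered and coloured by pathway) in 20 deletion columns named on the horizontal axis. Blue is below and red above the own median, the colour stops at -5 and 5 score units, and grey marks a missing value. BAS1 and PHO2 are dark in the upper histidine rows, LEU3 in LEU1 and BAT1, EDS1 in all 6 lysine rows, and CST6 to SNF6 across several pathways, while LEU9 and ASN1 stay pale in most columns.

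SWI/SNF slides or evicts nucleosomes at promoters, and the 5 strains lacking one of its subunits allowed a test over several columns. The median over the 37 genes was -1.63 in SWI3, -0.64 in SNF5, -2.30 in SNF2, -3.01 in SNF6 and -0.50 in SNF11, with a mean of -1.62 ± 1.07 (SD, n = 5) against -0.66 ± 0.48 (SD) over the outside strains. SWI3, SNF2 and SNF6 were low, and SNF5 and SNF11 lay close to the outside mean. HIS4 scored -3.96 in SWI3, -4.95 in SNF5, -4.78 in SNF2, -4.81 in SNF6 and -0.55 in SNF11, against -0.64 ± 0.97 (SD) over the outside strains. The first 4 strains lay far below that mean and SNF11 at it. The difference was -3.17 ± 0.46 (SE), with a limma adjusted p of 2.63e-09. LYS20 scored between -3.98 and -3.01 in the same 4 strains and -1.23 in SNF11, and its difference was -3.17 ± 0.46, with a limma adjusted p of 2.52e-09. ILV1 scored from -5.14 in SNF6 to -1.25 in SNF11, and its difference was -2.24 ± 0.33, with a limma adjusted p of 4.23e-09.

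In all, 19 of the 37 genes were lower in SWI/SNF strains at an adjusted p under 0.05, against 21.2% of all genes tested, and 1 was higher, against 11.3%. The median difference over the 37 genes was -0.84, against -0.07 over all genes. By pathway, lower calls were made for 3 of 6 histidine genes (HIS4, HIS1 and HIS7), 4 of 10 branched-chain genes (ILV1, ILV3, BAT2 and ILV5), 4 of 6 lysine genes (LYS20, LYS4, LYS9 and LYS12), 4 of 7 aromatic genes (ARO4, TRP2, TRP5 and ARO1), 3 of 5 threonine genes (THR1, HOM3 and THR4) and ASN2. BAT2 was the most even of them, between -4.25 and -3.28 in all 5 strains, at -3.75 ± 0.42 (SD, n = 5) against -1.75 ± 1.09 (SD) over the outside strains. HIS1 ran from -5.02 in SNF6 to -0.05 in SNF11, and ASN2 from -5.25 to -0.45 in the same strains. The gene that was higher was ARO2, at 0.58 ± 0.83 (SD, n = 5) against -0.33 ± 0.64 outside, with a limma adjusted p of 0.00898.

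Steps of 1 pathway went different ways in these strains. LYS1 scored 1.69 in SWI3 and 2.84 in SNF5 but -2.67 in SNF2 and -3.17 in SNF6, so its difference of 0.24 was called in neither direction. The other genes without a call had differences from -0.98 for BAT1 to 0.70 for TRP4, among them LEU1, LEU4, LEU9, ILV2, LYS21, HOM2 and ASN1, each between 0.03 and 0.60. ILV6 scored 4.22 in SWI3, where the genes of its chromosome III stood 1.17 higher together, and -2.63 in SNF6. Other genes of the same pathways that are not among the 37 gave no lower call: of 9, HIS3 and LYS5 were higher. Of 8 arginine synthesis genes 4 were higher, led by ARG4 with a difference of 3.43 ± 0.55, and none lower. Among 10 regulators GCN20, GCN3 and LEU3 were lower and GCN1, which activates Gcn2, was higher. Genes specific to a cells were lower for 5 of 6, with BAR1 between -6.98 and -2.64, and their part in the result was not tested.

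The standard errors come from the spread of all 268 columns, and the strains of a set are different deletions, not repeats of one. With quantile normalization between columns LYS20, HIS4 and ILV1 were the calls that held. Leaving out 1 strain gave 14 to 21 calls, and HIS7, THR4, ARO1, HOM3, TRP2, LYS12 and ILV5 were lost without SNF2, while HIS7, THR4, HOM3, TRP2, TRP5 and ILV5 were lost without SNF6, HIS7, ARO1, ILV5 and LYS9 without SWI3, ARO2 without SNF5 and ARO1 without SNF11.

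**Figure D4:**
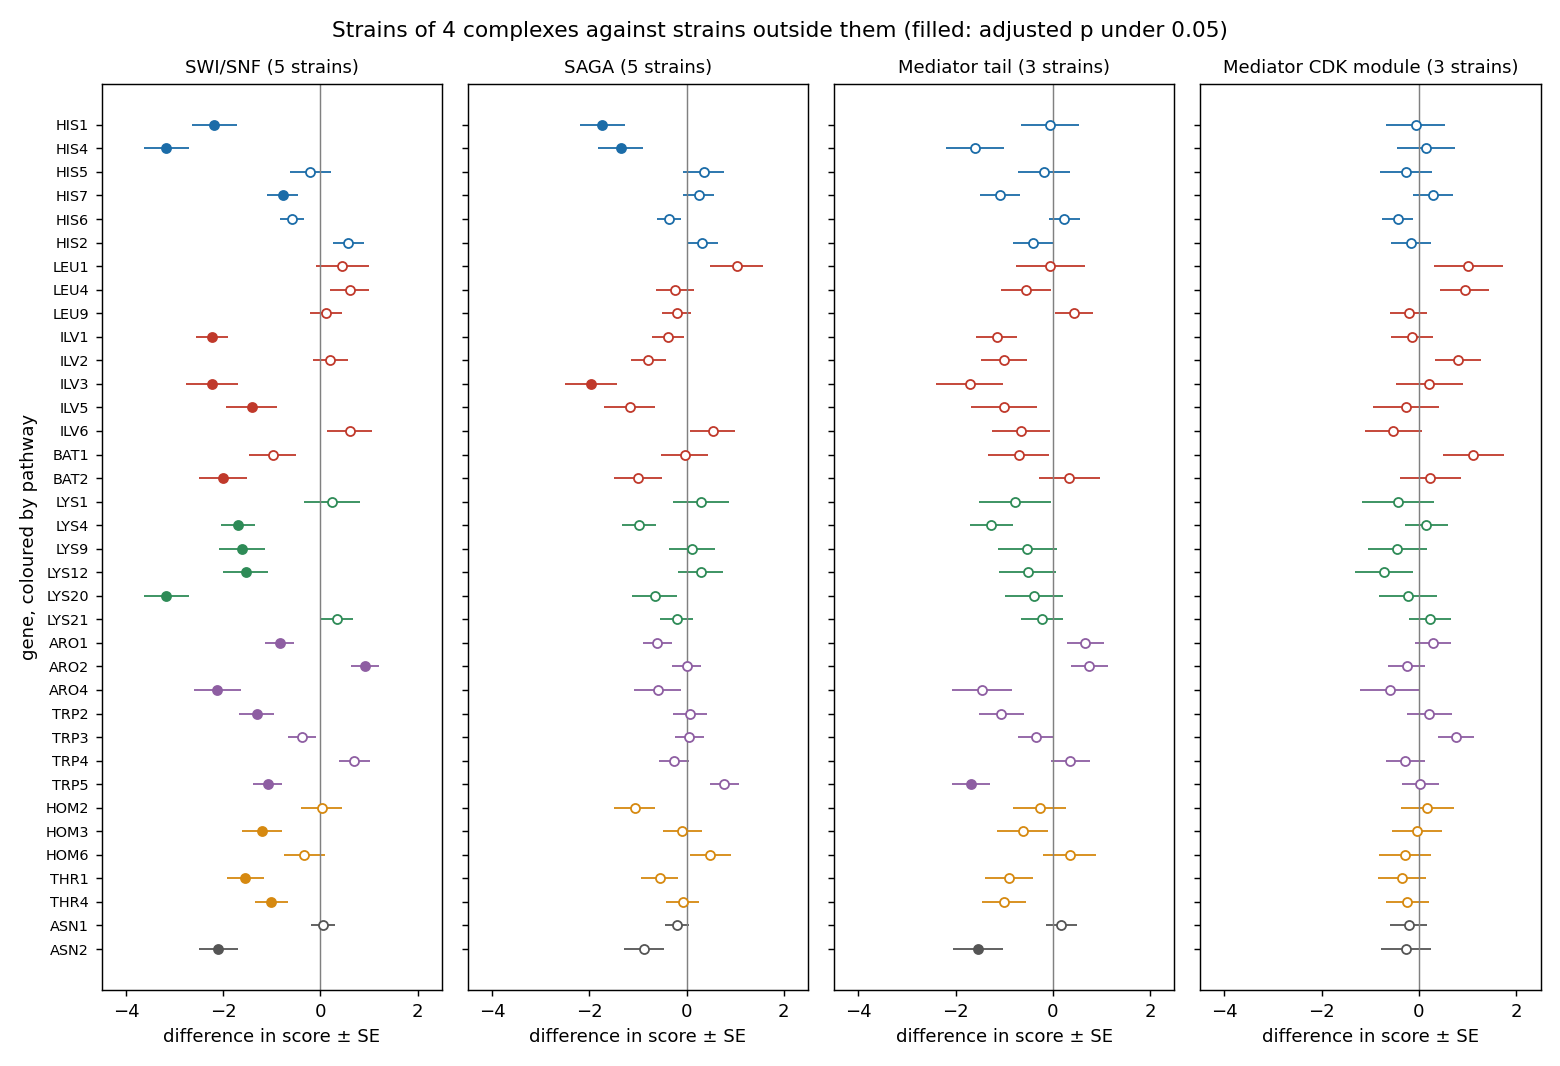
Difference in mean score between each of the 4 sets of strains and the outside strains for 36 genes, in score units, with bars of 1 standard error from the limma fit. Filled points have an adjusted p under 0.05 over all genes tested and open points do not. In SWI/SNF strains 19 points are filled below 0 and ARO2 above it, in SAGA strains 3 are filled below, in Mediator tail strains 2, and in CDK module strains none.

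SAGA acetylates histones and brings TATA-binding protein to promoters, and it is a known partner of Gcn4 in activation. In SAGA strains 3 of the 37 genes were lower, against 6.55% of all genes tested, and none was higher, against 3.28%. By limma 12 of the 37 had an unadjusted p under 0.05, and the median difference was -0.20, against -0.05 over all genes.

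ILV3 scored -1.71 in ADA2, -1.10 in NGG1, -3.95 in SPT3, -5.93 in SPT20 and -4.26 in HFI1, against -1.42 ± 1.13 (SD) over the outside strains. HIS1 scored -1.28, -1.04, -1.93, -4.74 and -3.38 in the same order, and HIS4 -1.95, 0.11, -2.71, -3.71 and -1.70. In all 3 genes SPT20 was lowest and NGG1 highest, and NGG1 lay within the outside spread. The differences were -1.97 ± 0.54 for ILV3 (limma adjusted p = 0.00689), -1.73 ± 0.47 for HIS1 (limma adjusted p = 0.0064) and -1.36 ± 0.46 for HIS4 (limma adjusted p = 0.0419).

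BAT2 scored -4.91 in SPT20 and -4.23 in HFI1 but -1.08 in ADA2, and was not called. TRP5 was high in the same pair of strains, at 2.32 in HFI1 and 0.63 in SPT20, and was not called either. Among the regulators PCL5, a cyclin that promotes breakdown of Gcn4, was lower with a difference of -2.61 ± 0.49, GCN3 was lower, and GCN1 and BAS1 were higher. Of 8 arginine genes ARG4 and ARG7 were higher, by 2.11 ± 0.55 and 1.97 ± 0.42. Genes specific to a cells were lower for 2 of 6, MFA1 and BAR1, and in SPT3, a column with low markers, STE3 scored -7.17, MF(ALPHA)2 -3.70 and SAG1 -3.67. Without the columns with low markers HIS4 had a difference of -1.18 and was not called (limma adjusted p = 0.171). No call among the 37 held without SPT20, without HFI1 or with quantile normalization, and HIS4 was also lost without ADA2 and without SPT3. In all there were 8 calls without NGG1, 6 without ADA2 and 2 without SPT3.

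In Mediator tail strains 2 of the 37 genes were lower, against 4.15% of all genes tested, and none was higher, against 3.74%. By limma 12 of the 37 had an unadjusted p under 0.05, and the median difference was -0.52, against -0.018 over all genes. TRP5 scored -3.97 in SIN4, -0.96 in GAL11 and -1.37 in PGD1, with a difference of -1.68 ± 0.38 (limma adjusted p = 0.00286). ASN2 scored -5.24, -1.41 and -0.81, with a difference of -1.54 ± 0.52 (limma adjusted p = 0.0466). SIN4 stood far below the other strains of its set in both, and the medians over the 37 genes were -2.53 in SIN4, -0.93 in GAL11 and -0.40 in PGD1.

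HIS3 and LYS5 were higher in tail strains and GCN20, PCL5 and LEU3 were lower. Neither call among the 37 held without SIN4, while 9 were made without PGD1 and 5 without GAL11.

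In strains lacking a CDK module subunit, part of a kinase module that binds Mediator reversibly, no gene among the 37 was called, against 0.0178% of all genes higher and 0.0% lower by limma. At an unadjusted p under 0.05 there was 1 of the 37, TRP3. The medians over the 37 genes were 0.10 in SSN3, -1.11 in SRB8 and -1.04 in SSN2, so SSN3 lay apart from the others. TRP3 scored 1.63 in SRB8, where the genes of its chromosome XI stood 1.31 higher together.

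Tested directly, tail and CDK module strains gave no call among the 37, against 0.107% of all genes higher and 0.196% lower by limma, with 10 of the 37 and 786 of all genes at an unadjusted p under 0.05. ILV2 and TRP5 had differences of -1.81 and -1.71, with limma adjusted p of 0.184 and 0.122. These differences were not distinguishable from the spread shared by all columns at 3 strains a set.

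Over the 268 columns the synthesis genes varied together more than gene pairs in general, as a description across columns that share the wild type label and the broad responses above. The median Pearson r was 0.24 over 666 pairs of the 37 genes and 0.01 over all pairs of tested genes. It was 0.33 for pairs within a pathway and 0.22 for the 559 pairs across pathways. Within pathways it was 0.61 for threonine, 0.50 for lysine (0.44 without the EDS1 column), 0.33 for histidine, 0.32 for branched-chain and 0.14 for aromatic genes.

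ARO4, ASN2 and THR4 followed the median of the other 36 genes most closely, with r of 0.81, 0.79 and 0.78. ASN1 at -0.09, LEU9 at -0.03, ARO1 at 0.01 and BAT2 at 0.07 did not follow it. Of the genes outside the list, those most like the median of the 37 over 268 columns were DED81, a cytosolic asparaginyl-tRNA synthetase, with r of 0.79, the translation factor gene TEF4 with 0.77, the ribosomal protein genes RPL4A and RPL4B with 0.75 and 0.74, YHR020W with 0.75 and the initiation factor gene TIF2 with 0.74. RPL3, ASC1, VRG4 and RPL5 followed with r between 0.71 and 0.72. The RNA of GCN4 itself had an r of 0.33, and that of GCN20, which acts with Gcn1, 0.49. For LYS14 it was -0.35.

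Pairs of genes for the same step differed in how they varied. LYS20 and LYS21 had an r of 0.48 over 262 columns, yet in SNF5 LYS20 scored -3.98 and LYS21 0.19, and in CSE2 they scored 0.51 and -2.77. BAT1 and BAT2 had an r of -0.03 over 268 columns, with -4.90 and 3.33 in HSF1 and 1.68 and -4.42 in MCM1. LEU4 and LEU9 had an r of -0.10 over the 89.9% of columns with both values, with -2.01 and 1.88 in CDC73 and 2.30 and -0.11 in IXR1. ASN1 and ASN2 had an r of -0.06 over the 91.4% of columns with both values. ASN1 scored above ASN2 in 96.3% of those columns. Their own medians were 0.41 and -0.85, so this share carries the offset between them. How far the probes of such similar genes share signal was not tested.

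**Figure D5:**
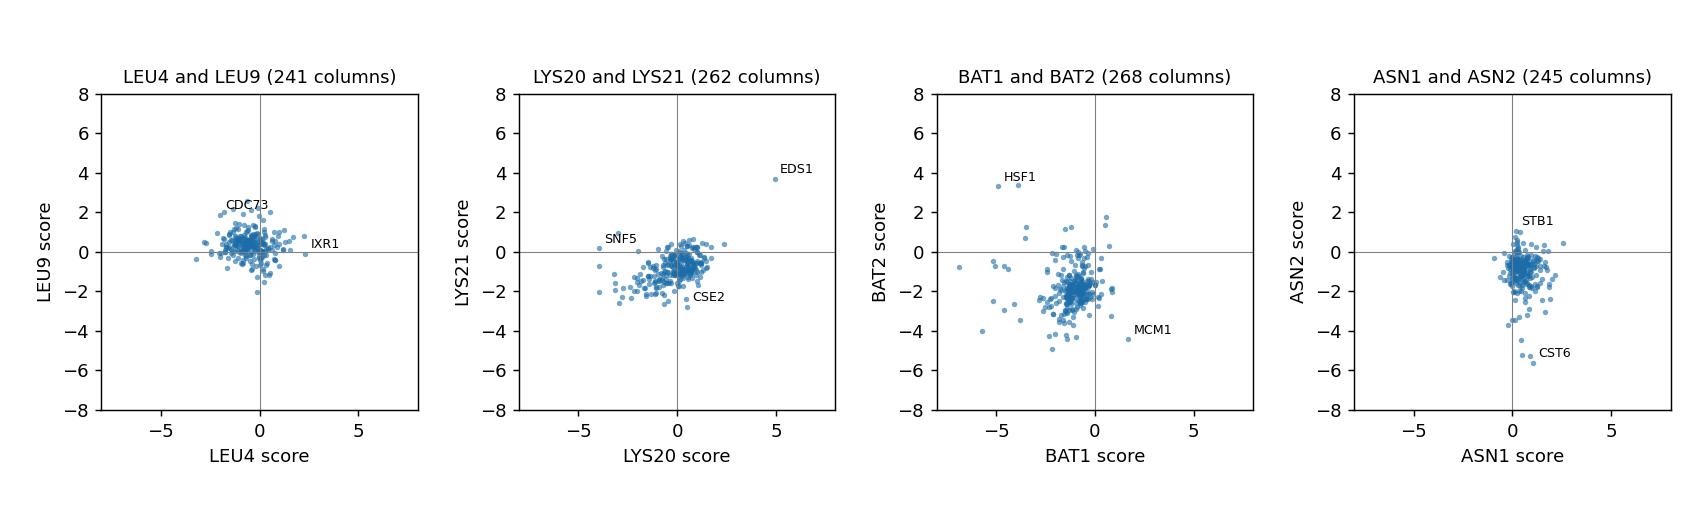
Scores of 4 pairs of genes that encode enzymes of the same step, 1 point per deletion column, with both axes in score units of deletion over wild type. LYS20 and LYS21 spread along the diagonal with an r of 0.48, while the BAT1 and BAT2, LEU4 and LEU9, and ASN1 and ASN2 clouds show r between -0.10 and -0.03, with single columns such as HSF1, MCM1 and CST6 far from the rest.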

How the data were processed

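RNA of 268 deletion strains was compared with wild type RNA on arrays with 2 channels. The authors deposited 1 table with a score for each feature and deletion, which per the labels is deletion over wild type, and the sources used here do not state its scale, log base, centring, normalization or array processing. Values ran from -8.35 to 8.05, 1.25% were missing, and no scanner files were used, so array signal behind a value is unknown and the number of strains limits precision. Of 6419 features, 5655 carried a gene name and 5615 of these had a value in at least 80% of columns and were tested. The deleted gene was masked in its own column. Set comparisons used limma 3.58.1 in R 4.3.3 (1 mean per set, empirical Bayes, Benjamini-Hochberg over all genes tested, threshold 0.05), checked on simulated data. Single columns were described with pandas 2.3.3 by score, rank and distance from each gene's own median. P-values rest on 1 spread per gene shared by all columns, most of them outside strains, and not on the spread within a set. Wild type spread is left out of them.

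The genes and lists were chosen with earlier results of these data known. Genes were named by pathway, and columns by their regulator or as the lowest and highest by the median of a pathway or of all 37 genes. In set comparisons the members past the threshold were named, and further ones were chosen after their values were seen. Alternatives covered normalization between columns, missing values, marker columns, columns with fewer digits, shifted chromosomes, array weights and left-out strains. Values of 1 further gene are not reported here.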

Additional observations from a re-analysis of the deposited data

Results flagged for a closer look

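In 4 of the 39 groups of strains tested for a strain far from its set, 1 strain stood apart. Chance gives about 1 in 20 for a single group. The groups share strains, and their genes vary together, so their count cannot be compared with that rate. In SWI/SNF strains the strain apart was SNF11 each time. HIS4 scored -0.55 in SNF11 and between -4.95 and -3.96 in the other strains. LYS4 scored 0.95 there and between -4.03 and -2.81 in the others, and LYS12 scored 0.62 against -3.70 to -2.77. In SAGA strains the median of ASN1 and ASN2 was -1.66 in SPT20 and between -0.71 and -0.40 in the others.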

How the results depend on the processing

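No paired analysis was possible because each deletion has 1 column and the labels carry no replicate numbers. Called genes among the 37 went from 20 to 3 in SWI/SNF strains, from 3 to 0 in SAGA strains and from 2 to 0 in Mediator tail strains with quantile normalization between columns, which also turned the SWI/SNF differences of HIS7 to 0.11, TRP2 to 0.034 and ILV5 to 0.027. The cause was not tested. Without the columns written with fewer digits SAGA had 5 and tail strains 5, with each column minus its median tail strains had 4, and with array weights tail strains had 1 and CDK module strains 1. Without columns whose own gene stood above its median elsewhere, chosen after seeing the data, SAGA had 0. Leaving out 1 strain gave 14 to 21 calls for SWI/SNF, 0 to 8 for SAGA, 0 to 9 for tail, 0 to 0 for CDK module and 0 to 1 for tail against CDK module strains. The difference of the median over the 37 genes then ran from -1.24 to -0.61 in SWI/SNF, -0.42 to -0.08 in SAGA, -1.07 to -0.01 in tail and -0.42 to 0.19 in CDK module strains. For these changed settings, here and above, the shares called over all genes tested are not given. A change particular to the 37 genes therefore cannot be told from one over the whole table. With each gene minus its median over columns the GCN4 column's median was -0.011 in place of -0.56, and the branched-chain median of the LEU3 column -1.70 in place of -2.69. Signal over background is not given in the table, so dim genes could not be told from well measured ones.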

Other observations

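In the RSC2 column, which lacks a subunit of the chromatin remodeller RSC, the median distance from the genes' own medians was -1.62 for threonine genes, -0.58 for lysine, -0.24 for branched-chain, -0.14 for histidine and -0.02 for aromatic genes. In the HFI1 column it was -1.13 for branched-chain genes, 0.92 for lysine, 0.90 for threonine, 0.22 for histidine and 0.14 for aromatic genes, so pathways stood on both sides of their own medians.

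The highest score of 7 of the 37 genes came from a column in which the genes of their chromosome stood higher together. The share over all genes tested is not given, so this count cannot be set against that of other genes. The 7 genes were HIS7 in ABF1, HIS6 in UME6, ILV1 in SWI6, ILV6 in SWI3, TRP2 and HOM3 in SIN3 and TRP3 in MAL33. HIS6 scored 1.77 in UME6, where the genes of chromosome IX stood 2.34 higher. LYS1, LYS12 and HIS5, also on chromosome IX, scored 4.70, 3.96 and 3.47 in UME6. TRP3 scored 2.64 in MAL33, where the genes of chromosome XI stood 2.16 higher. The part of these shifts in the scores was not tested.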
